A study of Mus musculus with 15 samples.

Results

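Thoracic aortas of mice given either of 2 selective cyclooxygenase-2 (COX-2) inhibitors were taken as 1 treated group of 10 libraries and set against the 5 libraries of vehicle-treated mice. These are all 15 libraries of the study, pooled to look for an effect of the drug class on aortic transcripts. An effect of 1 drug alone can also move the pooled contrast, which therefore does not show that an effect is shared. The treated group held 5 libraries from mice given celecoxib at 30 mg/kg and 5 from mice given rofecoxib at 10 mg/kg, while the control mice received PEG-400, the vehicle, alone. Every mouse was a wild-type C57BL/6 male aged 10 to 12 weeks, received 100 µL by gavage and was killed 6 h later at Zeitgeber hour 11, late in the light phase. Libraries are numbered 1 to 5 within a group, and polyadenylated RNA was sequenced. The labels do not state that each library came from a separate mouse, so p-values measure the spread between these libraries, which may in part be technical. Because the 2 drugs were given at different doses, their separate values stand side by side below and carry no ranking.

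COX-2, the product of Ptgs2, oxidises arachidonic acid to the precursor from which separate synthases make prostaglandins, prostacyclin and thromboxane. In the vessel wall prostacyclin relaxes smooth muscle and restrains platelets, and selective COX-2 inhibitors lower its production. The thoracic aorta is sheathed in perivascular fat that in mice resembles brown fat, a heat-producing tissue rich in mitochondria, and this fat can stay on the vessel at dissection.

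The deposited counts per library summed to between 30937046 and 30967115, with 19158 to 19746 genes detected, and 15134 of 37681 genes were abundant enough to test. Smooth muscle markers dominated every library, with 5 markers summing to between 33410 and 48820 CPM (counts scaled to a common library total), and the 5 endothelial markers summed to between 387.6 and 665.5 CPM. Several libraries stood apart in both groups. The 5 sympathetic neuron markers summed to 390.5 CPM in celecoxib 4, 255.6 in rofecoxib 5, 153.9 in vehicle 4, 121.8 in rofecoxib 3 and 61.05 in celecoxib 2, and to between 3.322 and 16.75 in the remaining libraries. Celecoxib 1 stood apart in glucocorticoid-responsive genes, as described below.

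No gene passed the test of the pooled group against vehicle. With edgeR's quasi-likelihood test over 15134 genes, 0 genes were higher and 0 lower at an adjusted p under 0.05, and the smallest adjusted p was 0.279. At an unadjusted p under 0.05, 416 genes (2.75%) were higher and 922 (6.09%) lower in the treated group, 1338 (8.84%) in all. The lower side therefore held more genes than the higher side, although the median log2 fold change of all genes was only 0.01 and 47.9% of the fold changes were negative. DESeq2 called 88 genes, 10 higher (0.128% of the 7797 genes to which it gave an adjusted p) and 78 lower (1.0%), with a smallest adjusted p of 0.00786. Leaving out any single library also gave 0 calls with edgeR, and limma-voom gave 0 calls with 401 genes higher and 943 lower at an unadjusted p under 0.05. A class effect on a single gene was thus not detected by edgeR or limma-voom with 10 against 5 libraries, and the genes described next are given as values, not as changes. Celecoxib set directly against rofecoxib also gave 0 calls with edgeR, with a smallest adjusted p of 0.526 and 1053 genes (6.96%) at an unadjusted p under 0.05.

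Few genes separated all 10 treated libraries from all 5 vehicle libraries. Of the genes tested, 6 (0.0396%) lay higher in every treated library than in any vehicle library, and 16 (0.106%) lay lower in every one. Of these, 4 of the higher and 11 of the lower carry a symbol that is not of a clone or predicted-gene type. Leaving out 1 library gave between 7 and 47 higher genes, the most without vehicle 3. The lower genes then numbered between 13 and 64, the most without vehicle 2. With fewer libraries the groups separate more easily, so a rise in these counts does not by itself show dependence on 1 library.

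Strn encodes striatin, a scaffold of a phosphatase complex that is abundant in cardiovascular tissue, and it had the smallest p of the higher genes. Its level was 30.7 CPM in the lowest treated library, 32.6 at the median and 34.6 in the highest, against 27.5, 29.8, 29.9, 27.6 and 28.3 CPM in vehicle 1 to 5. The groups did not overlap, but the gap was narrow and the ratio was 1.14 (log2 fold change 0.19, SE 0.04, edgeR adjusted p = 0.279, DESeq2 adjusted p = 0.00786). Celecoxib and rofecoxib stood nearly level, at log2 fold changes of 0.185 and 0.193. Strn lies at chr17:79049051-79136738 in mm9.

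Dnm3os, a non-coding RNA transcribed from the opposite strand of Dnm3 and the host of microRNAs, ranged in the treated group from 39.9 CPM through a median of 46.6 to 66.2. Vehicle libraries 1 to 5 held 36.9, 35.7, 32.4, 36.8 and 24.3 CPM. The means were 48.15 ± 8.14 (SD, n = 10) and 33.2 ± 5.31 (SD, n = 5), a ratio of 1.45, with rofecoxib 5 highest and vehicle 5 lowest. Without knowledge of strand in the authors' counting, reads of Dnm3os and of Dnm3 (3.87 CPM on average, log2 fold change 0.33) cannot be told apart. Sesn1, the stress-induced sestrin that restrains mTOR signalling, ranged from 97.5 through 115 to 172 CPM in treated libraries and stood at 93.4, 91.3, 80.8, 93.2 and 94.1 CPM in vehicle. Its ratio was 1.32, and celecoxib 1 held its highest level. The splicing factor Snrpa1 separated by less than the rounding of its values, with a lowest treated library and a highest vehicle library both near 22.35 CPM. Cdc14a, a cell cycle phosphatase, was above the highest vehicle library in 9 of 10 treated libraries, at a ratio of 1.28.

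The other genes with the smallest p on the higher side were the kinases Stk17b and Alpk1, the ubiquitin ligase Peli1 of Toll-like receptor signalling, the mitochondrial folate enzyme Mthfd1l, the tyrosine phosphatase Ptpn3 and the translation factor Eif5a2. The 10 genes of smallest p on this side had ratios from 1.14 to 1.45. DESeq2 called Strn, Dnm3os, Cdc14a, Stk17b, Peli1, Mthfd1l, Ptpn3, Sesn1 and Eif5a2 among its 10 higher genes. The remaining gene was Wee1, a cell cycle kinase whose transcript follows the circadian clock.

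Acsl5 activates long-chain fatty acids for oxidation or storage, and it had the smallest p of the lower genes above 2 CPM. Treated libraries ranged from 43.2 through a median of 49.8 to 55.8 CPM, and vehicle libraries 1 to 5 stood at 65.1, 56.0, 59.3, 66.3 and 78.2. All 10 treated libraries were below the lowest vehicle library, and the ratio of the groups was 0.766 (log2 fold change -0.39, SE 0.08, edgeR adjusted p = 0.279, DESeq2 adjusted p = 0.00786). Acsl5 spans chr19:55327657-55371319 in mm9 and overlaps the opposite-strand gene Zdhhc6, whose own log2 fold change was -0.05. The histone gene Hist1h4h was lower still in ratio, at 0.549, but it held only 0.701 to 1.06 CPM in treated libraries against 1.51, 1.28, 1.18, 2.22 and 1.84 CPM in vehicle. Near-identical histone copies make that count uncertain.

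Ptger1, the EP1-type receptor for prostaglandin E, was the only prostanoid gene tested whose groups did not overlap. Its treated libraries lay between 44.8 and 50.9 CPM with a median of 48.4, and vehicle libraries 1 to 5 stood at 51.8, 53.0, 54.9, 56.0 and 64.1. The ratio was 0.862 (log2 fold change -0.21, SE 0.05, edgeR adjusted p = 0.279). The Ptger1 count is uncertain, because whether the authors' counting used strand is not known. Ndufb3, a subunit of respiratory complex I, stood at 40.9 to 53.3 CPM in treated libraries and at 55.1, 55.0, 55.5, 61.2 and 68.3 in vehicle. Also fully below vehicle were Alkbh7 and Mcee, both of mitochondria, Tomm5 of the mitochondrial import pore, the centromere protein Cenpv, Kctd15 and Pdrg1, with ratios from 0.784 for Cenpv to 0.855 for Pdrg1. Hnrnpm, an RNA-binding splicing regulator, lay outside the naming rule and was named after its values were seen; it averaged 146.5 CPM treated and 162.4 vehicle.

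**Figure D1:**
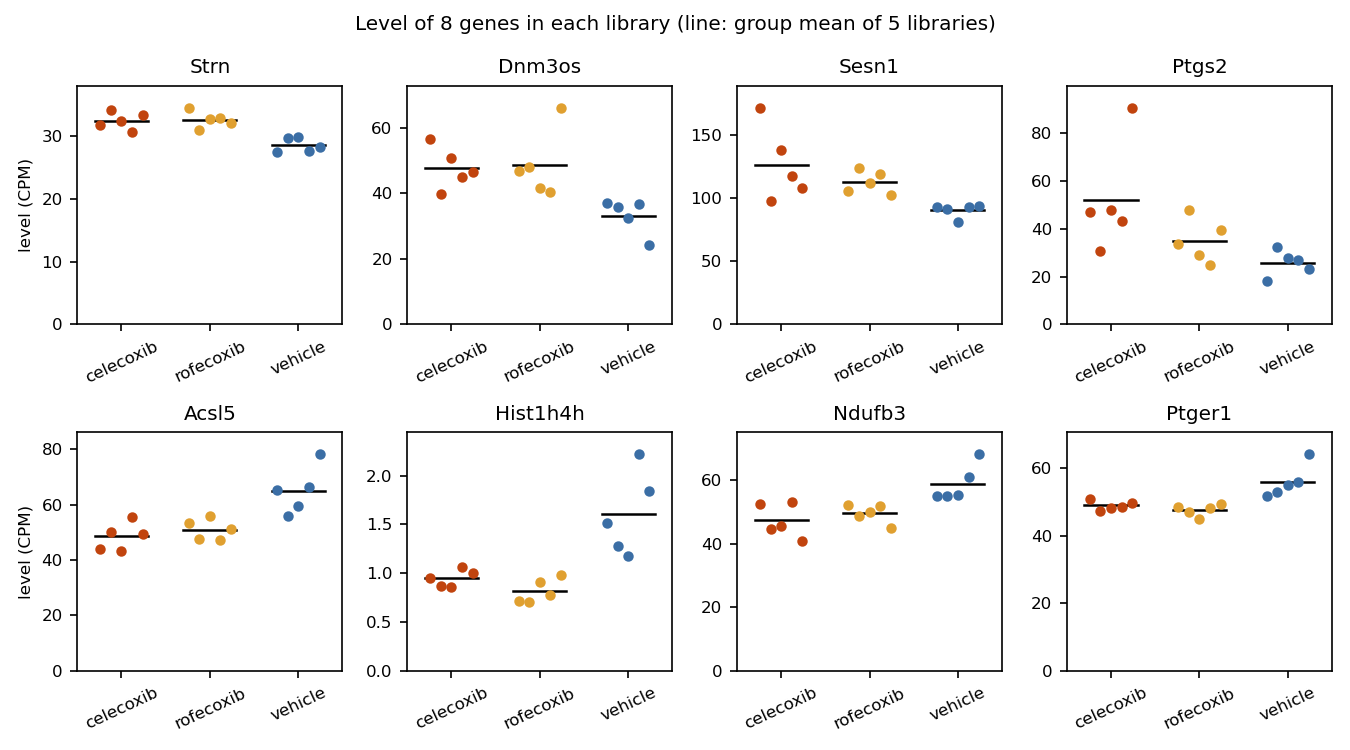
Level in CPM (vertical axis, from 0) of 8 genes in each of the 15 libraries, grouped by compound, with a line at each group mean. All 10 treated libraries lie above vehicle for Strn, Dnm3os and Sesn1 and below it for Acsl5, Hist1h4h, Ndufb3 and Ptger1, while Ptgs2 overlaps and celecoxib 5 reaches 90.8 CPM.

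Larger ratios occurred among less abundant or more variable genes on the lower side. Adrb1, the beta-1 adrenergic receptor, averaged 1.06 ± 0.435 CPM (SD, n = 10) in treated and 2.83 ± 0.904 (SD, n = 5) in vehicle libraries, a ratio of 0.376. Anxa8, an annexin, ranged from 1.802 to 5.257 CPM in treated libraries and stood at 8.07, 4.08, 10.2, 11.2 and 6.34 in vehicle. Cish, a suppressor of cytokine receptor signalling, had a ratio of 0.360 and Slc16a1, a lactate and ketone transporter, a ratio of 0.434. In these 4 genes between 7 and 9 of 10 treated libraries lay below the lowest vehicle library. Hspe1 and Hspd1 encode the paired chaperonin proteins of the mitochondrial matrix and lie head to head, with gene spans that overlap by 516 bases. Hspe1 stood between 45.3 and 56.6 CPM in treated libraries and at 59.7, 58.1, 54.6, 62.8 and 67.0 in vehicle, a ratio of 0.817. For Hspd1 the ratio was 0.743, and for both genes 9 of 10 treated libraries lay below the lowest vehicle library. Sod2, the mitochondrial superoxide dismutase, had a ratio of 0.675, and Aifm1, a mitochondrial flavoprotein, a ratio of 0.803.

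The target of both drugs stood higher in the treated group. Ptgs2 held 24.8 CPM in the lowest treated library, 41.5 at the median and 90.8 in the highest, and 18.0, 32.3, 27.7, 26.8 and 23.3 CPM in vehicle 1 to 5. In 7 of 10 treated libraries the level was above the highest vehicle library, and celecoxib 5 alone was the highest by a wide margin. The means were 43.5 ± 18.6 CPM (SD, n = 10) and 25.6 ± 5.35 (SD, n = 5), a ratio of 1.70 (log2 fold change 0.76, SE 0.26, edgeR adjusted p = 0.358). Taken as a single value, the difference of mean log2 CPM was 0.694 with an exact two-sided permutation p of 0.0163 over 3003 assignments. That p was 0.0145 without celecoxib 5 but 0.0609 without vehicle 1, the lowest library, and the exact permutation p was 0.0159 for celecoxib alone and 0.0873 for rofecoxib alone. Ptgs2 lies at chr1:151947052-151955342 in mm9.

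The other genes of prostanoid synthesis stood near vehicle or below it. Of 28 prostanoid genes tested, 1 was higher and 4 lower at an unadjusted p under 0.05 (2.75% and 6.09% of all genes), and the median log2 fold change was -0.05, between -0.10 without celecoxib 5 and 0.01 without celecoxib 3. Ptgs1, the constitutive cyclooxygenase, averaged 15.3 ± 4.43 CPM treated and 15.2 ± 3.74 vehicle, with an interval of the log2 fold change from -0.44 to 0.45. Ptgis, the prostacyclin synthase, stood at 1076 ± 143 CPM treated and 1049 ± 110 vehicle, and its interval ran from -0.16 to 0.23. Ptges2, a prostaglandin E synthase, had a ratio of 0.760, and Ptgr2, which reduces a prostaglandin breakdown product, a ratio of 0.777; each was below the lowest vehicle library in 8 of 10 treated libraries. Ptges, the inducible prostaglandin E synthase, had a ratio of 0.730 (log2 fold change -0.45), and -0.25 on the log2 scale without vehicle 4. The prostacyclin receptor Ptgir and the thromboxane synthase Tbxas1 had log2 fold changes of -0.19 and -0.55, which without vehicle 1 were -0.12 and -0.16. For Ptgir leaving out vehicle 3 gave -0.05.

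The start regions of 3 of these genes are shown because Ptgs2 encodes the drug target and Strn and Acsl5 had the smallest p among separated genes above 2 CPM in each direction. They are RefSeq promoter windows of GRCm38.p6, from 250 bases before to 50 bases after the start, read 5′ to 3′ along the gene: Ptgs2 at chr1:150099781-150100080 on the plus strand, Strn at chr17:78736512-78736811 on the minus strand and Acsl5 at chr19:55253119-55253418 on the plus strand. Capitals mark matches, on either strand, to any of 5 motifs: TGTTCT (a steroid receptor motif), AGGTCA (a nuclear receptor motif), CACGTG (E-box), TTCNNGAA (heat shock element) and TGACGTCA (cyclic AMP response element).

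Ptgs2: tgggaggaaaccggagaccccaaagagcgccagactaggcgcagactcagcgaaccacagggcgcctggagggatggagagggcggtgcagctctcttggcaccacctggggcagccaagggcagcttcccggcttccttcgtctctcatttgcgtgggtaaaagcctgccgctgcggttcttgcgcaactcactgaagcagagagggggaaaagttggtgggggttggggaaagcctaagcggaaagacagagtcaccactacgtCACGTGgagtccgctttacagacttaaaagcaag

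Strn: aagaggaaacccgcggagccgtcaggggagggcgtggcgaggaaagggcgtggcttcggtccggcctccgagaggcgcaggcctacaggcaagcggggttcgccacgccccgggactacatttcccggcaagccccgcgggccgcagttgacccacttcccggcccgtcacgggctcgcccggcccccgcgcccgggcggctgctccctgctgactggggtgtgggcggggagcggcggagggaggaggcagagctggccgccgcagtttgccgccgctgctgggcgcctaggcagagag

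Acsl5: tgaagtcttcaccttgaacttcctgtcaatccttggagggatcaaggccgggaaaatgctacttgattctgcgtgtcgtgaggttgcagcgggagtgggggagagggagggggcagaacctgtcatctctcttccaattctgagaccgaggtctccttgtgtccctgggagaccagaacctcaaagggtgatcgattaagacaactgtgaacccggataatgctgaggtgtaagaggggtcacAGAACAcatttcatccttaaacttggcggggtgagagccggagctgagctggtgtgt

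Ptgs2 held 1 CACGTG, which 7.15% of 32851 such windows hold, and Acsl5 held 1 TGTTCT, read on its other strand and present in 19% of windows. In the Strn window none of the 5 motifs was found. These matches describe letters in a window and say nothing of a factor that might bind there.

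Among gene lists with 10 or more members tested, those of fat and of mitochondrial energy metabolism had the lowest medians. Of 23 brown adipocyte genes tested, 18 were lower and 0 higher at an unadjusted p under 0.05, where 6.09% of all genes were lower, and 21 had a negative log2 fold change. Their median log2 fold change was -0.86, against 0.01 for all genes, with -0.90 for celecoxib and -0.84 for rofecoxib set against the same vehicle libraries. DESeq2 called 4 of them, where 1.0% of all genes with an adjusted p were called lower. In bulk tissue, fewer fat cells on the vessel and less of these transcripts per fat cell cannot be told apart.

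Gyk, the glycerol kinase of thermogenic fat, ranged from 38.5 through 51.8 to 63.5 CPM in treated libraries and stood at 64.1, 62.4, 118, 72.7 and 121 CPM in vehicle. Dio2, which activates thyroid hormone, ranged from 37.0 through 51.5 to 72.5 CPM, against 49.7, 62.6, 129, 92.7 and 134. The elongase gene Elovl3, active in brown fat, ranged from 0.0322 through 1.09 to 2.02 CPM, against 1.99, 1.38, 4.94, 3.71 and 19.7. In these genes vehicle 3 and vehicle 5 were high, and vehicle 1 and vehicle 2 lay within or close to the treated range. The log2 fold change of Elovl3 was -2.57 with all libraries and -1.50 once vehicle 5 was left out. Gmpr, a nucleotide enzyme, had a ratio of 0.499, and a log2 fold change of -0.61 once vehicle 5 was left out. Ucp1, the uncoupling protein that defines brown fat and named for that reason after its values were seen, averaged 118 ± 78.0 CPM (SD, n = 10) in treated and 453 ± 322 (SD, n = 5) in vehicle libraries, and 7 of 10 treated libraries lay below the lowest vehicle library. Acot11 and Prdm16, also members and named after their values were seen, had log2 fold changes of 0.02.

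White and general adipocyte genes stood lower as well. Of 28 tested, 16 were lower and 0 higher at an unadjusted p under 0.05, where 2.75% of all genes were higher and 6.09% lower, with a median log2 fold change of -0.67, which was -0.90 for celecoxib and -0.49 for rofecoxib. Fabp4, the fatty acid carrier of fat cells, ranged from 284 through 591 to 1012 CPM in treated libraries, and vehicle libraries held 787, 632, 946, 1390 and 1390. Gpd1, which makes the glycerol backbone of triglyceride, had a ratio of 0.347, Agpat2 and Dgat1 of triglyceride assembly 0.492 and 0.671. Agpat2 overlaps the endothelial gene Egfl7 by 468 bases. Of 22 genes of fatty acid and triglyceride synthesis, 14 were lower, again beside 6.09% of all genes, with a median of -0.32 that was -0.20 without vehicle 5. Gpam, the first enzyme of triglyceride assembly, had a ratio of 0.633, the carbohydrate-responsive factor Mlxipl 0.608, the fatty acid synthesis enzyme Acaca 0.670 and the elongase Elovl6 0.447.

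The respiratory chain and citrate cycle genes stood lower together. All 44 tested had a negative log2 fold change and 43 were lower at an unadjusted p under 0.05, again beside 6.09% of all genes. The median was -0.37, with -0.39 for celecoxib and -0.36 for rofecoxib against the same vehicle libraries. Cs, citrate synthase, ranged from 223 through 272 to 340 CPM in treated libraries and stood at 379, 312, 339, 380 and 495 in vehicle. The ratio was 0.726, and 8 of 10 treated libraries lay below the lowest vehicle library. Fumarase Fh1, the isocitrate dehydrogenase subunit Idh3b and the succinate-CoA ligase subunit Suclg1 had ratios of 0.740, 0.736 and 0.689. These transcripts are nuclear-encoded: all 37 rows of the mitochondrial genome held 0 counts in the table, so its own transcripts were not measured.

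Fatty acid oxidation genes lay between the 2 patterns. Of 34 tested, 24 were lower and 0 higher at an unadjusted p under 0.05, where 6.09% of all genes were lower, with a median log2 fold change of -0.53. DESeq2 called 12 of them, where it called 1.0% of all genes lower. Besides Acsl5, Plin2, a coat protein of lipid droplets, had a ratio of 0.546, Ech1, an auxiliary beta-oxidation enzyme, 0.658 and Hadha of the mitochondrial trifunctional protein 0.700. Among 30 chaperones 7 were lower at that p, beside 6.09% of all genes, including Hspe1, Hspd1, Trap1 and Hspa9 of the mitochondrial matrix, while the list median was -0.07, and -0.04 without celecoxib 2, rofecoxib 4 or vehicle 2. In the antioxidant list 7 of 24 were lower and in the hypoxia and glycolysis list 9 of 27, again beside 6.09% of all genes, with medians of -0.06 and -0.16. The antioxidant median was -0.03 without celecoxib 2 and -0.04 without celecoxib 3, and the hypoxia median -0.06 without vehicle 5.

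**Figure D2:**
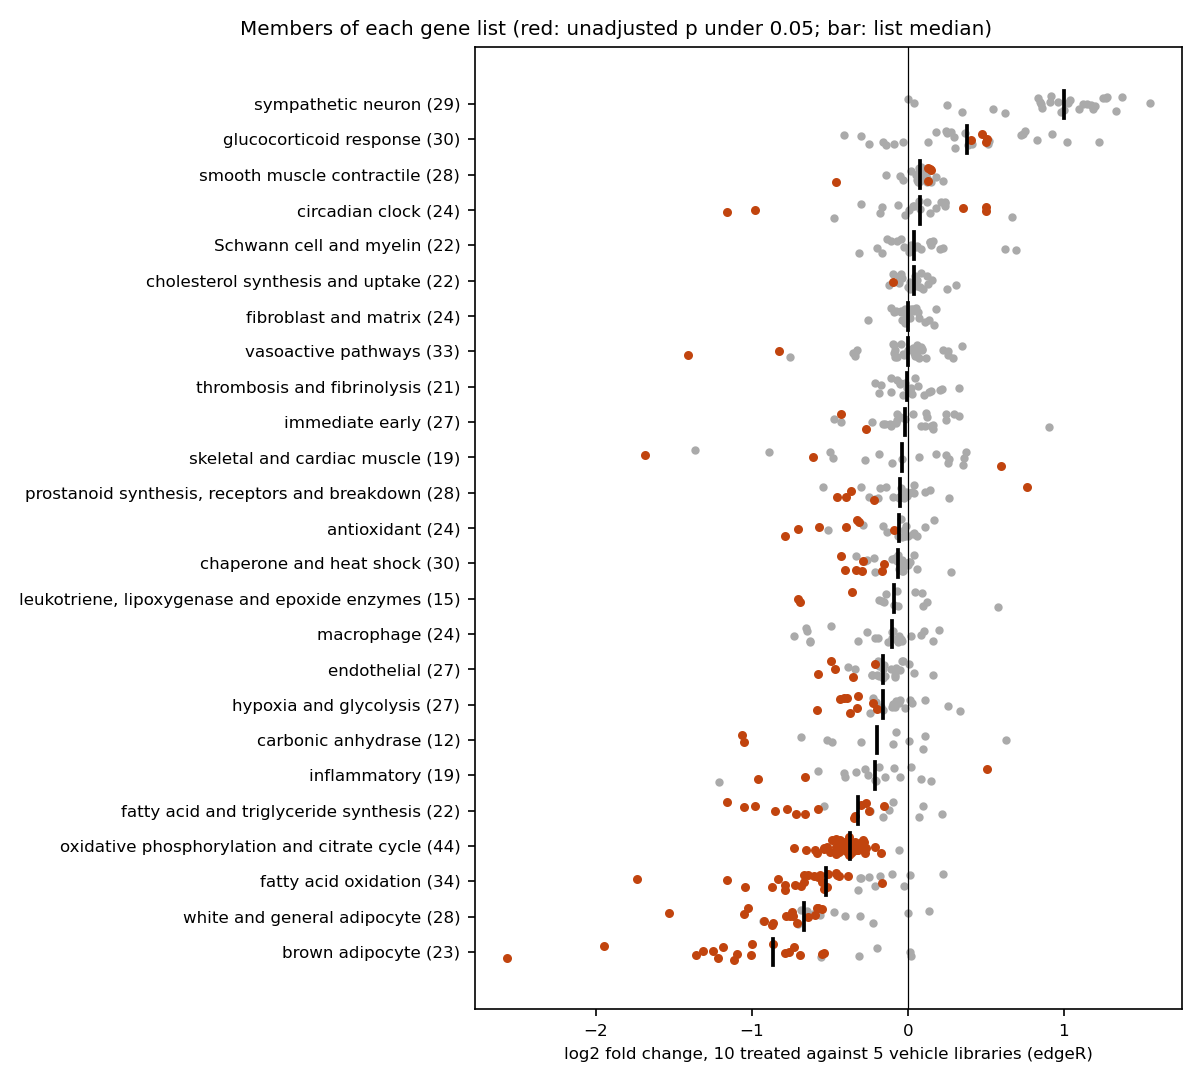
Log2 fold change of the treated group against vehicle (horizontal axis) for every tested member of the gene lists with at least 10 tested members, their number in brackets; red points have an unadjusted p under 0.05 and bars mark list medians. The brown adipocyte list has the lowest median, -0.86, the 44 respiratory and citrate cycle genes all lie left of 0, and the sympathetic list lies right of 0 with no red point.

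Fat marker levels also varied from library to library, and no correlation with these lists was computed. The brown adipocyte markers Ucp1, Cidea, Cox8b and Elovl3 were above 0 in every library, and Zic1, the other marker, was at 0 in 3 and too low to test. Their sum ranged from 30.83 through a median of 198.9 to 451.2 CPM in treated libraries, and stood at 502.0, 304.5, 563.4, 708.1 and 1414 CPM in vehicle. The 5 general adipocyte markers, all tested, summed to between 411.3 and 1551 CPM in treated and between 888.2 and 2059 CPM in vehicle libraries. The mean log2 CPM of the respiratory and citrate cycle genes was lowest, at 6.59, in celecoxib 2, which had the lowest brown marker sum. It was highest, at 7.62, in vehicle 5, which had the highest sum. In celecoxib 4, the treated library with the highest sum, it was 7.16, between vehicle 3 at 7.08 and vehicle 1 at 7.22.

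**Figure D3:**
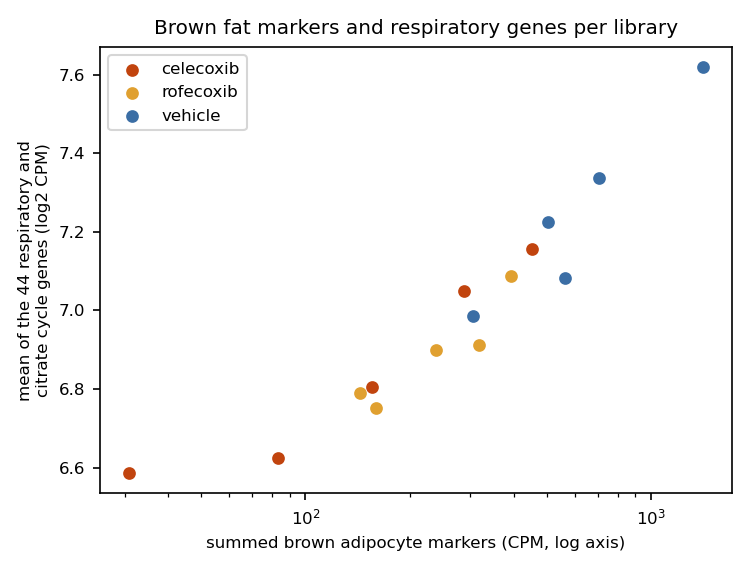
Mean log2 CPM of the 44 respiratory and citrate cycle genes (vertical axis) against the summed CPM of brown adipocyte markers (horizontal log axis) in each of the 15 libraries, coloured by compound. Points run from celecoxib 2 at 30.83 CPM and 6.59 to vehicle 5 at 1414 CPM and 7.62. Vehicle 2, at 304.5 CPM, is the only vehicle library within the treated range of marker sums, and no relation was fitted.

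Adding a fat marker mean to the edgeR model as a covariate reduced these differences, and the gene calls stayed at 0. With the general adipocyte markers, 220 genes (1.45%) were higher and 440 (2.91%) lower at an unadjusted p under 0.05. The medians were then -0.59 for the brown list, -0.18 for the white list and -0.21 for the respiratory and citrate cycle list, of which 36 of 44 were lower. With the brown adipocyte markers, a model chosen after seeing the data, 187 genes (1.24%) were higher and 184 (1.22%) lower. The respiratory and citrate cycle median was then -0.10 with 0 of 44 lower at that p, the fatty acid oxidation median -0.10 with 1 of 34, and the white list median 0.01 with 0 of 28. The brown list median was 0.01. The brown list holds the brown markers and the white list the general adipocyte markers. A median is brought towards 0 in part by construction where a list is fitted beside its own markers. This holds for the brown list with the brown markers and the white list with the general adipocyte markers. Of the 922 lower genes, 93 (10.1%) were also lower in that model, and of the 416 higher genes 102 (24.5%) were also higher. The marker mean itself stood lower in the treated group, so a drug effect on fat transcripts and a difference in attached fat cannot be told apart by this model.

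Beside the brown markers, some of the named genes had an unadjusted p under 0.05 and others did not. Of the genes whose groups did not overlap, 5 of 6 higher and 12 of 16 lower had such a p, and so did 9 of the 10 higher and all 10 lower genes of smallest p. These genes were chosen on the same libraries, so the counts only describe them. Among the separated genes, Ndufb3 (edgeR unadjusted p = 0.0833), Mcee (edgeR unadjusted p = 0.0584) and Snrpa1 (edgeR unadjusted p = 0.0807) did not have one. Strn had a log2 fold change of 0.15 in that model against 0.19 without the markers, Sesn1 0.53 against 0.40 and Peli1 0.67 against 0.46. Acsl5 had -0.28 against -0.39, Hist1h4h -0.77 against -0.86, Ptger1 -0.17 against -0.21 and Cish -1.31 against -1.47. Other lower genes were reduced further. Adrb1 had -0.75 against -1.41, Slc16a1 -0.59 against -1.20, Sod2 -0.26 against -0.57 and Aifm1 -0.15 against -0.32. Cs had -0.16 (edgeR unadjusted p = 0.0604) and Ptgs2 0.51 (edgeR unadjusted p = 0.154). Ptges2 had -0.17 against -0.40 (edgeR unadjusted p = 0.142 in that model) and Ptgr2 -0.16 against -0.36 (edgeR unadjusted p = 0.189). The log2 fold change of the endothelial lipase anchor Gpihbp1 was 0.03 in that model. Elovl3 also had 0.03, but it is 1 of the markers that make up the covariate, which brings its value towards 0 by construction. None of these genes passed adjustment over all genes in either covariate model.

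**Figure D4:**
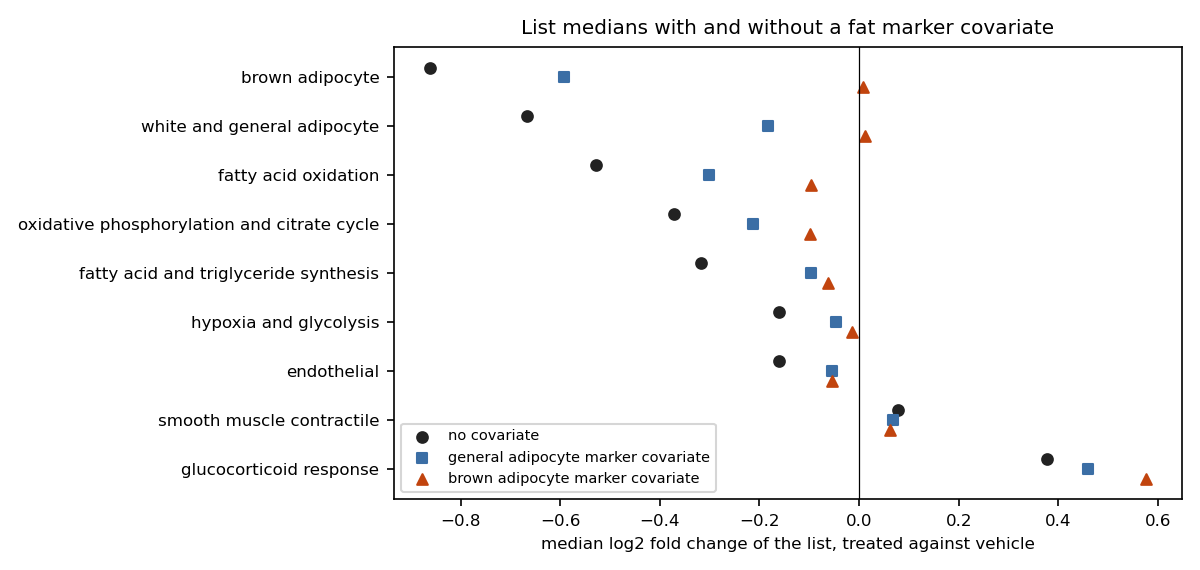
Median log2 fold change (horizontal axis) of 9 gene lists for the treated group against vehicle, without a covariate (circles), with the general adipocyte marker mean (squares) and with the brown adipocyte marker mean (triangles). The fat and mitochondrial medians, from -0.86 to -0.32 without a covariate, lie between -0.10 and 0.01 with the brown markers, while the glucocorticoid median goes from 0.38 to 0.58.

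Glucocorticoid-responsive genes had a positive median in the pooled group, but not with rofecoxib alone. Of 30 tested, 23 had a positive log2 fold change (52.1% of all genes did) and 4 were higher at an unadjusted p under 0.05 (2.75% of all genes were), with a median of 0.38. The median was 0.65 for celecoxib, with 27 positive and 3 negative, and -0.03 for rofecoxib, with 12 positive and 18 negative. It was 0.145 for the pooled group without celecoxib 1. Per library, the list mean was 7.78 log2 CPM in celecoxib 1 and between 5.92 and 6.76 in the other treated libraries, against 5.68 to 6.53 in vehicle. Adamts1, a matrix protease, ranged from 448 through 634 to 812 CPM in treated libraries and stood at 415, 512, 308, 535 and 498 in vehicle. Beside Sesn1 and Adamts1, the members of smallest p were the clock gene Per1, with a ratio of 1.42, and Nfkbia, the inhibitor of NF-kappa-B, with 1.42. For Per1, 7 of 10 treated libraries lay above the highest vehicle library, celecoxib 1 at 431 CPM.

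Clock genes showed both signs. Of 24 tested, 3 were higher and 2 lower at an unadjusted p under 0.05, beside 2.75% and 6.09% of all genes, with a median log2 fold change of 0.08, and 0.12 without vehicle 5. Wee1 ranged from 21.4 through 27.5 to 33.2 CPM in treated libraries, and vehicle libraries held 16.5, 21.5, 11.9, 22.8 and 22.4. Per3, a period gene, had a ratio of 1.28. Arntl, which encodes the clock activator BMAL1, ranged from 1.09 through 1.71 to 3.53 CPM, against 2.09, 1.65, 10.7, 3.27 and 5.09 in vehicle. Without vehicle 3, which also held the lowest Per1 and Wee1, the log2 fold change of Arntl was -0.55 in place of -1.16.

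**Figure D5:**
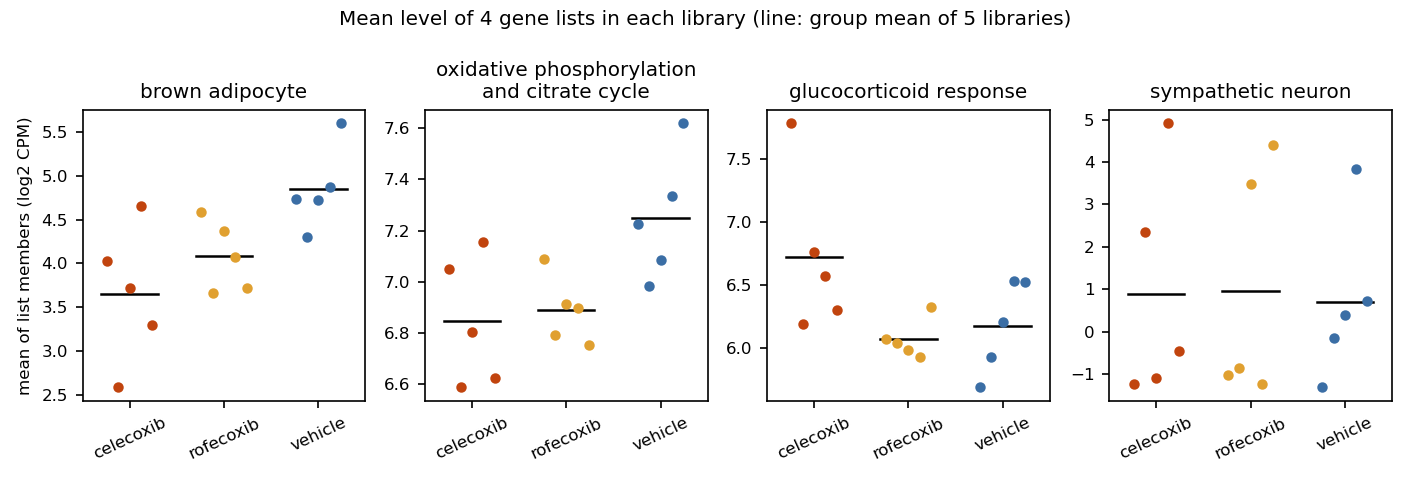
Mean log2 CPM of the members of 4 gene lists (vertical axes, not starting at 0) in each of the 15 libraries, grouped by compound, with a line at each group mean. For the brown adipocyte and the respiratory lists 7 of 10 treated libraries lie below the lowest vehicle library, celecoxib 1 stands apart for the glucocorticoid list, and sympathetic values spread widely in each group, from -1.32 to 4.91 over all libraries.

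The smooth muscle, endothelial and fibroblast lists had smaller median shifts than the fat and mitochondrial lists. Single genes such as Kdr differed more, and bulk counts do not separate transcripts of the vessel wall from those of attached fat. Of 28 smooth muscle contractile genes 4 were higher and 1 lower at an unadjusted p under 0.05, beside 2.75% and 6.09% of all genes, with a median log2 fold change of 0.08, and 0.155 without vehicle 2. Myh11, the smooth muscle myosin, averaged 12060 ± 720 CPM (SD, n = 10) treated and 11020 ± 924 (SD, n = 5) vehicle. The filamin Flna had a ratio of 1.09 and the LIM protein Csrp1 1.11, whereas Casq2, a calcium store protein, had 0.726. Casq2 held only 1.05 to 2.47 CPM in treated and 1.9 to 2.73 CPM in vehicle libraries, ranges that overlap. Of 27 endothelial genes 5 were lower, beside the same 6.09%, with a median of -0.16, which was -0.10 without celecoxib 3 or without vehicle 4, -0.06 with the general adipocyte covariate and -0.05 with the brown one. Kdr, the receptor for vascular endothelial growth factor, ranged from 11.5 through 23.2 to 38.3 CPM in treated libraries, against 43.1, 30.4, 34.4, 35.4 and 34.0 in vehicle. Egfl7, Gpihbp1 and Sox18, also of endothelium, had ratios of 0.784, 0.712 and 0.724, and Gpihbp1 a log2 fold change of -0.49, or -0.31 without vehicle 4. The Egfl7 count is uncertain without knowledge of strand, because the gene overlaps the opposite-strand Agpat2 (log2 fold change -1.02). Nos3, the endothelial nitric oxide synthase, had a log2 fold change of -0.34 with an interval from -0.75 to 0.07, and -0.14 without vehicle 4. Fibroblast and matrix genes had 0 of 24 at that p in either direction, with a median of 0.00, and edgeR and DESeq2 called 0 of them.

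A pair of groups had large medians that shifted when single libraries were left out. All 29 sympathetic neuron genes had a positive log2 fold change and a median of 0.998, but 0 had an unadjusted p under 0.05, and the median ran from 0.31 without celecoxib 4 and 0.60 without rofecoxib 5 to 3.35 without vehicle 4. The sum of the 5 sympathetic markers had a median of 6.616 CPM in treated and 10.14 CPM in vehicle libraries. The red blood cell genes, 7 tested, had 0 at that p and a median of -0.87, between -1.15 without celecoxib 5 and -0.48 without vehicle 3. T cell, B cell and mesothelial markers were mostly too low to test, with 1 of 5 tested in each list and sums of at most 1.29, 2.32 and 8.53 CPM.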

How the data were processed

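Libraries of polyadenylated RNA from mouse thoracic aorta, 15 in all, were taken to gene counts by the authors, and the deposited table holds whole-number counts per gene. Per the submitters' processing notes, CASAVA 1.8.2, STAR 2.5.2a and the build mm9 were used; the counting tool, strand setting and annotation were not given in the sources used here. The deposited totals differ by only 0.0971% of their mean; no source used here records a step to a common total, and the depth before any such step is unknown. The 5 libraries of a group were treated as its replicates. Per the labels' protocols, libraries were built over several days, with no day given per library, so day could not be modelled.

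Genes were filtered with filterByExpr, scaled by TMM and tested with edgeR 4.0.16 (quasi-likelihood, robust, R 4.3.3) as 10 treated against 5 vehicle libraries, with Benjamini-Hochberg adjustment over all 15134 genes tested and a threshold of 0.05. DESeq2 1.42.0, limma 3.58.1 (voom), other scalings and filters, each compound alone, marker covariates and leaving out each library were alternatives; the brown adipocyte covariate was added after seeing the data. Values per library are CPM on TMM-scaled totals, and log2 CPM used a prior count of 2. Intervals of log2 fold changes are 95% intervals from the edgeR fit. The procedure was tested on simulated data. Ptgs2 was also tested with an exact two-sided permutation test.

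The genes named were the 10 of smallest p per direction, up to 10 per direction whose groups did not overlap, the 4 members of smallest p in each of 11 lists, and 7 prostanoid or endothelial genes, with a mean of at least 1 CPM for the first 2 kinds. Some items that the rule would name are not reported here. Members and lists were chosen with earlier results of these data known. RefSeq promoters matched 59 of the 74 named genes.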

Additional observations from a re-analysis of the deposited data

Results flagged for a closer look

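Among 404 sets of libraries checked, 20 had a single library farther from the rest than Dixon's limit allows; chance alone flags about 1 in 20 sets, which is the share seen here. All values are log2 CPM.

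Celecoxib 1 accounted for several. It was high among the treated libraries for the mean of the glucocorticoid response genes (7.78, next library 6.76), the mean of the clock genes (6.11, next 5.82) and Snrpa1 (4.80), and low for Tomm5 (4.06). Per1 in celecoxib 1 was 8.75, apart from the other celecoxib libraries and from the treated libraries as a whole, with the next at 8.04.

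Ptgs2 was high in celecoxib 5 (6.50, next 5.58) and Elovl3 low in celecoxib 2 (-3.37), each among the treated libraries. Within celecoxib, Stk17b was high in celecoxib 3 (7.39), and Slc16a1 (4.54) and Gmpr (4.08) were high in celecoxib 4. Within rofecoxib, Dgat1 (5.80), Mlxipl (5.57) and the antioxidant mean (6.30) were high in rofecoxib 1. Rofecoxib 4 was low for Adrb1 (-0.50) and for the chaperone mean (7.27). Within vehicle, Mthfd1l (3.03) and Sesn1 (6.34) were low in vehicle 3, Cenpv (2.72) was high in vehicle 1 and Mcee (4.49) high in vehicle 5.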

How the results depend on the processing

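The count of genes called by edgeR or limma, 0 in each direction, was the same under every alternative except DESeq2, which called 10 higher and 78 lower. At an unadjusted p under 0.05, the 416 higher genes became 810 with celecoxib alone, 222 with rofecoxib alone, 220 with the adipocyte covariate and 187 with the brown covariate. The 922 lower genes became 562 with rofecoxib alone, 440 with the adipocyte covariate and 184 with the brown covariate. Leaving out 1 library gave 244 (without vehicle 5) to 738 (without vehicle 3) higher, with 630 without vehicle 2, and 516 (without vehicle 5) to 978 (without vehicle 2) lower, with 609 without vehicle 4. Genes whose groups did not overlap numbered 7 to 47 higher and 13 to 64 lower when 1 library was left out. This criterion is easier to meet with fewer libraries, so a rise is in part built in. The higher count moved over 1.5 times without any library except celecoxib 2, celecoxib 3 and rofecoxib 2, and the lower count without celecoxib 4, rofecoxib 1, vehicle 1, vehicle 2 or vehicle 3. The lower count was 10 with upper quartile scaling and 10 with a filter of 1 CPM in 5 libraries. The Ptgs2 difference of mean log2 CPM ranged from 0.573 to 0.796 when 1 library was left out, and was 0.436 with rofecoxib alone. Signs turned for Gpihbp1 (0.0265) and for Elovl3 (0.0312) with the brown covariate, the latter itself a marker in that covariate and so near 0 by construction, and for Ptgis (-0.0121) with weighted limma-voom. They also turned for Ptgs1, near 0 throughout, with limma-voom (-0.0166), with rofecoxib alone (-0.0574) and without some single libraries (range over all libraries left out in turn, -0.053 to 0.173). Other causes were not tested.

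No pairing of libraries by number was seen: 6 of 15 same-number pairs and 26 of 60 other-number pairs had a correlation of deviations over 0.1. Of 15 libraries, 4 correlated best with their own number. With the number as a replicate block, 0 genes were called, with 425 higher and 938 lower at an unadjusted p under 0.05, and the Ptgs2 difference of 0.694 had an exact permutation p of 0.0535.

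The near-equal totals leave the depth behind each library unknown.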

Other observations

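In the remaining gene lists edgeR called 0 genes, and their counts at an unadjusted p under 0.05 stand beside 6.09% of all genes lower and 2.75% higher. Inflammatory genes, 19 tested, had 2 lower and 1 higher and a median log2 fold change of -0.21, which ran from -0.34 without vehicle 5 to 0.07 without vehicle 3. Carbonic anhydrases had 2 of 12 lower and a median of -0.20, between -0.29 without celecoxib 4 and -0.12 without vehicle 4. Genes of leukotriene, lipoxygenase and epoxide pathways, not all of which act on arachidonic acid, had 3 of 15 lower. Their median was -0.09, and -0.04 without vehicle 1. Macrophage genes had 0 of 24 at that p and a median of -0.10, between -0.21 without vehicle 2 and -0.04 without vehicle 4.

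The medians of the other lists lay within 0.05 of 0, and leaving out 1 library moved each by over 1.5 times or turned its sign. Genes of vasoactive pathways had 2 of 33 lower, close to the share of all genes, and a median of 0.00. Those of thrombosis and fibrinolysis had 0 of 21 and a median of -0.01. Cholesterol synthesis genes had 1 of 22 lower and a median of 0.04, between -0.03 without vehicle 3 and 0.17 without vehicle 2. Immediate early genes had 2 of 27 lower and a median of -0.02, between -0.08 without vehicle 1 and 0.07 without celecoxib 1. Schwann cell genes, 22 tested, had a median of 0.04, between -0.27 without celecoxib 4 and 0.30 without vehicle 4. Skeletal and cardiac muscle genes, 19 tested, had 2 lower and 1 higher and a median of -0.04, between -0.12 without celecoxib 2 and 0.12 without vehicle 3. Lymphocyte genes, 5 tested, had a median of 0.05, between -0.17 without celecoxib 1 and 0.24 without vehicle 1.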
